A study of Mus musculus with 13 samples.

Results

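Whole bone marrow carrying the BRSST guide combination together with a guide against Ezh2 was compared with marrow carrying only the control guide, gene by gene, on 8 of the 13 expression arrays of the study. The groups were taken from the sample labels: BRSST+sgEzh2 with 4 arrays and sgLuc with 4 arrays. Another group of 5 arrays, BRSST+sgLuc, carried the BRSST combination with the control guide. It served to say which differences were also present against marrow without the Ezh2 guide. Its arrays also entered the spread that the model shares between groups, the filter on dim genes and the choice of row for a gene. In every group the donor cells were LSK cells, a marrow fraction rich in blood stem and progenitor cells, from mice with Cas9 knocked in, so all 3 groups share the nuclease and the transplantation. The cells received their guides and went 24 h later into C57Bl/6J mice that had been irradiated with 7 Gy. Marrow was taken when signs of leukemia appeared or, without them, after 6 months, and the labels do not tell these cases apart by sample. The labels spell out neither BRSST nor the ages of the mice, and the share of marrow cells that carried an edit was not measured on these arrays. The mice also keep some marrow cells of their own after irradiation. The groups differ in the BRSST combination and in the Ezh2 guide at once, so a difference from sgLuc belongs to the pair of them.

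Ezh2 is the catalytic subunit of Polycomb repressive complex 2 (PRC2), which places methyl groups on lysine 27 of histone H3. Genes that carry this mark are kept silent, many of them developmental regulators and fetal genes. Polycomb repressive complex 1 (PRC1), which contains Bmi1, acts on much of the same chromatin. In the blood system loss of Ezh2 occurs in myeloid neoplasms. Normal marrow is a mixture dominated by neutrophils and their precursors. It also holds red cell precursors, B lineage cells, plasma cells, and rarer basophils, eosinophils, dendritic cells and macrophages.

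The arrays of the 2 groups compared were alike in level. Over all 13 arrays the medians ran from 7.19 to 7.32 on the log2 scale, and the mean correlation of an array with the others of its group was 0.9595 to 0.9665 in BRSST+sgEzh2 and 0.9689 to 0.9827 in sgLuc. Of the BRSST+sgLuc arrays, replicates 2 and 5 stood apart from their group, with mean correlations of 0.9147 and 0.9286 against 0.9455 to 0.9553 for the other replicates and values of 37.1 and -32.2 on the second principal component of the 13 arrays. They enter the spread that the model shares between groups, and the counts without them are given beside those with them. The first principal component of the 8 arrays held 52.3% of the variance and placed BRSST+sgEzh2 at -25.6 to -17.0 and sgLuc at 19.6 to 25.4. Neutrophil genes marked every array as marrow: the mean of 14 secondary and tertiary granule genes was 12.08 to 12.41 in BRSST+sgEzh2 and 12.46 to 12.57 in sgLuc. The Y-linked genes Uty and Kdm5d were high on all 4 sgLuc arrays and on BRSST+sgEzh2 replicates 1 and 2, and low on replicates 3 and 4. Array numbers in the labels run on through both BRSST groups and start anew for sgLuc, so a batch of arrays and the control group cannot be told apart. The labels do not state that the samples of a group are separate mice. The p-values then cover only the spread between these samples, part of which may be technical.

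Ezh2 itself was lower in marrow with its guide. Its log2 signal was 8.08, 9.0, 8.81 and 9.22 on BRSST+sgEzh2 replicates 1 to 4 and 10.42, 10.48, 9.94 and 10.55 on sgLuc replicates 1 to 4. The lowest value was that of replicate 1, and the groups did not overlap. The means were 8.78 ± 0.50 (SD, n = 4) and 10.35 ± 0.28 (SD, n = 4), a difference of -1.57 ± 0.28 (log2, SE) that left 33.6% of the control signal. The limma adjusted p was 0.00306, and a two-sided exact permutation test gave p = 0.0286, the smallest that 70 splits of 4 against 4 allow. On the 5 BRSST+sgLuc arrays Ezh2 read 9.15 to 10.46, and the direct difference from them of -1.05 ± 0.26 missed the threshold (limma adjusted p = 0.0808). An edit can leave a transcript in place, and where the probes lie relative to the guide's target is unknown, so this checks the labels only in part.

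Of 10601 genes tested, 993 (9.37%) had a limma adjusted p below 0.05, and such genes are named called from here on. The rises were more numerous and the falls were larger. There were 584 called rises (5.51% of genes tested) with a median of log2 0.68, and 409 called falls (3.86%) with a median of -0.84. At 2-fold or more there were 120 rises (1.13%) and 156 falls (1.47%), and at 8-fold or more 3 rises and 9 falls. Rises thus made up 58.8% of all calls but 43.5% of those past 2-fold. The median over all genes tested was 0.02. The values of the 4 and 4 arrays did not overlap for 2465 genes (23.3%), 1505 of them higher (14.2%) and 960 lower (9.06%), and 946 genes (8.92%) were both called and apart. Single arrays moved the number of calls: leaving out BRSST+sgEzh2 replicate 1 gave 610 and replicate 2 gave 597, while leaving out sgLuc replicate 1 gave 519 and replicate 2 gave 588. Without BRSST+sgLuc replicates 2 and 5, a choice made after seeing the data, it was 1739. With only the 2 groups compared in the fit it was 1822, and with array quality weights 2976. With the high Y-linked class alone, which leaves BRSST+sgEzh2 replicates 1 and 2 against sgLuc, 902 rose and 972 fell, so that 48.1% were rises. Quantile normalization gave 53.3% rises and no filter 53.7%, and blocking on Y-linked class gave 50.3%. Counts in gene lists moved with such settings as well: by over 1.5 times for 35 of 41 lists with array quality weights, 19 with only the 2 groups compared, 8 with quantile normalization and 2 with equal medians. Where a range over settings is given for a list, it is that over the 13 settings other than leaving out 1 of the 8 arrays. List counts are to be read beside the shares over all genes tested, 5.51% called higher and 3.86% called lower. Beside these shares, 1 or 2 calls in a list say little about the list.

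**Figure D1:**
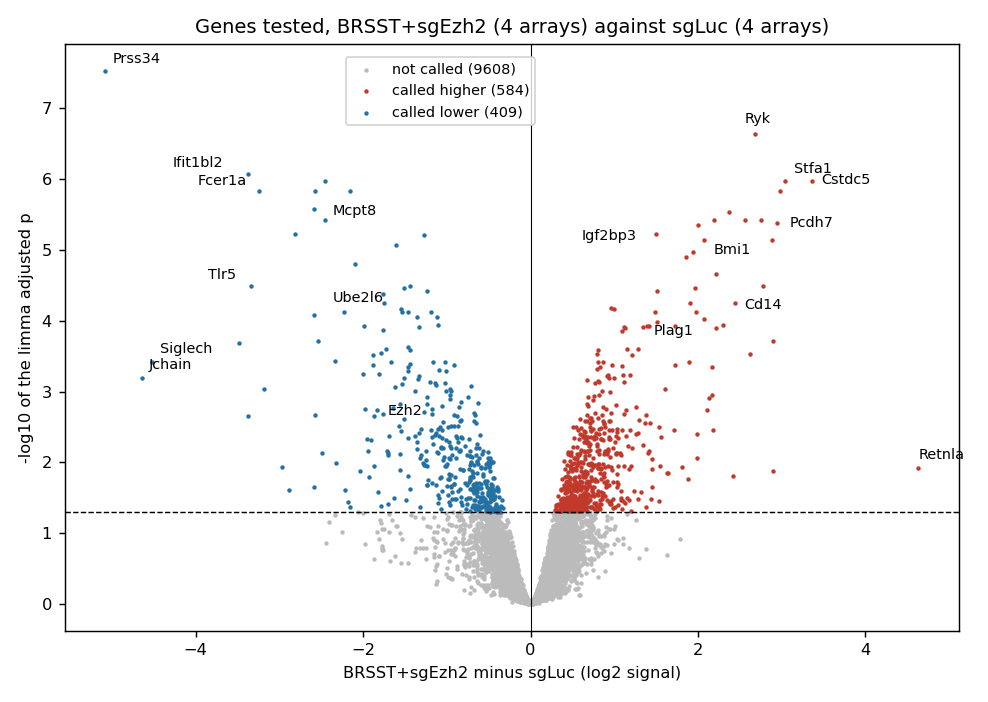
Each point is 1 of the 10601 genes tested, with the difference BRSST+sgEzh2 minus sgLuc (log2 signal) on the horizontal axis and -log10 of the limma adjusted p on the vertical axis; the dashed line is an adjusted p of 0.05. Red points are the 584 called rises and blue points the 409 called falls, with Prss34 farthest to the left at -5.08 and Retnla farthest to the right at 4.63.

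Basophil genes gave the largest fall of all. Prss34, a serine protease of basophil granules, read 7.75, 7.80, 7.17 and 7.51 on the BRSST+sgEzh2 arrays and 12.76, 12.73, 12.40 and 12.65 on the sgLuc arrays. Every BRSST+sgEzh2 array was far below every sgLuc array. The difference was -5.08 ± 0.23, or 33.8-fold (limma adjusted p = 2.97e-08). Fcer1a, the alpha chain of the high-affinity receptor for immunoglobulin E, read 6.57, 6.40, 6.13 and 6.03 against 9.79, 10.00, 8.90 and 9.41, a difference of -3.24 ± 0.23 (1.46e-06). Mcpt8, another basophil protease, fell by 2.45 ± 0.20 (3.86e-06), and Hdc, which makes histamine, fell by 1.13 ± 0.17 (0.000821). For these genes as well the groups did not overlap. They were the 4 called falls among 9 tested genes of the basophil and mast cell list, which had no called rise and a median of -0.56 (-0.36 without BRSST+sgEzh2 replicate 4 and -0.90 without replicate 2; range over settings 3 to 6 falls and 0 to 1 rise), and 8 of its 17 members were too dim to be tested. Of the 9 tested genes 5 had differences below 0 and 4 above 0, so the list did not fall as a whole. Cpa3 and Kit, which mast cells and progenitors also express, differed by 0.51 ± 0.37 (0.442) and 0.09. In RNA of whole marrow, fewer cells of a type and less RNA per cell cannot be told apart, here and for the cell type lists that follow. Of 4 tested eosinophil genes 2 fell, Prg2, the major basic protein (-1.24 ± 0.25, 0.00694), and Alox15, a lipoxygenase (-0.97 ± 0.15, 0.000935). The eosinophil list also had 1 rise without BRSST+sgEzh2 replicate 3, and 0 to 1 rise and 1 to 3 falls over settings.

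Plasma cell and plasmacytoid dendritic cell genes were also among the largest falls. Jchain, the chain that joins secreted antibodies, read 8.79, 5.99, 8.08 and 6.55 on the BRSST+sgEzh2 arrays and 12.11, 12.14, 12.33 and 11.39 on the sgLuc arrays. Its BRSST+sgEzh2 values spread widely but stayed below all sgLuc values, at -4.64 ± 0.67 (limma adjusted p = 0.00065). Among 9 tested plasma cell genes 4 fell and 0 rose, with a median of -1.18 (-0.80 without a filter on dim genes; 2 to 6 falls over settings). The other falls were Slamf7, a surface receptor (-2.59 ± 0.64, 0.022), Irf4, a transcription factor of plasma cell formation (-1.72 ± 0.35, 0.00694), and Sdc1, the plasma cell marker CD138 (-1.18 ± 0.20, 0.00205). Xbp1, a secretory factor that many cells express, stood at -0.02. The call of Slamf7 was lost without sgLuc replicate 1, 2 or 4 (0.0615, 0.0568 and 0.0571). Among the BRSST+sgEzh2 arrays Slamf7 was lowest on replicate 1 (5.02), where Jchain was highest (8.79). The mean of the natural killer genes described below was also lowest on that replicate (6.06). Which cells gave Slamf7 its signal was not tested.

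Siglech, a lectin of plasmacytoid dendritic cells, the main producers of type I interferon, was at 6.48, 6.18, 6.25 and 6.76 in BRSST+sgEzh2 and at 11.16, 11.38, 10.37 and 10.82 in sgLuc. That is a gap of more than 3 log2 units between the highest and the lowest arrays of the groups. The difference was -4.52 ± 0.60, or 22.9-fold (limma adjusted p = 0.000382). Ccr9, a chemokine receptor of these cells, fell by 2.82 ± 0.24 (6.02e-06, with all 4 BRSST+sgEzh2 values below the lower quartile of their arrays), Klk1, a kallikrein, by 1.51 ± 0.22 (0.000655), Bst2 by 1.46 ± 0.34 (0.0158) and Tcf4, the transcription factor that specifies them, by 0.96 ± 0.27 (0.0396). The call of Bst2 was lost without BRSST+sgEzh2 replicate 1 or sgLuc replicate 2 (0.0538 and 0.0506), and that of Tcf4 without any array but BRSST+sgEzh2 replicate 3 (0.0565 to 0.11). In all, 6 of 10 tested genes of that list fell and 0 rose (median -1.49; 5 to 9 falls over settings). The sixth was Ly6d (-2.88 ± 0.73, 0.0242), where BRSST+sgEzh2 replicate 3 read 10.69 and the other replicates 7.53 to 7.77. Its call was lost without BRSST+sgEzh2 replicate 1, 2 or 4 or sgLuc replicate 1, 2 or 4 (0.0552 to 0.0776). The list's count of falls was 3 without BRSST+sgEzh2 replicate 1 or sgLuc replicate 2, 4 without BRSST+sgEzh2 replicate 2 or 4 or sgLuc replicate 1 or 4, and 7 without BRSST+sgEzh2 replicate 3. On replicate 3, where Ly6d was high, Siglech was not (6.25). The mean of the mature B cell genes described below was 9.06 there and 7.28 to 7.68 on the other BRSST+sgEzh2 replicates. The plasmacytoid list, which includes Ly6d, had means of 8.30 and 7.46 to 7.61. Which cells gave Ly6d its signal was not tested.

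**Figure D2:**
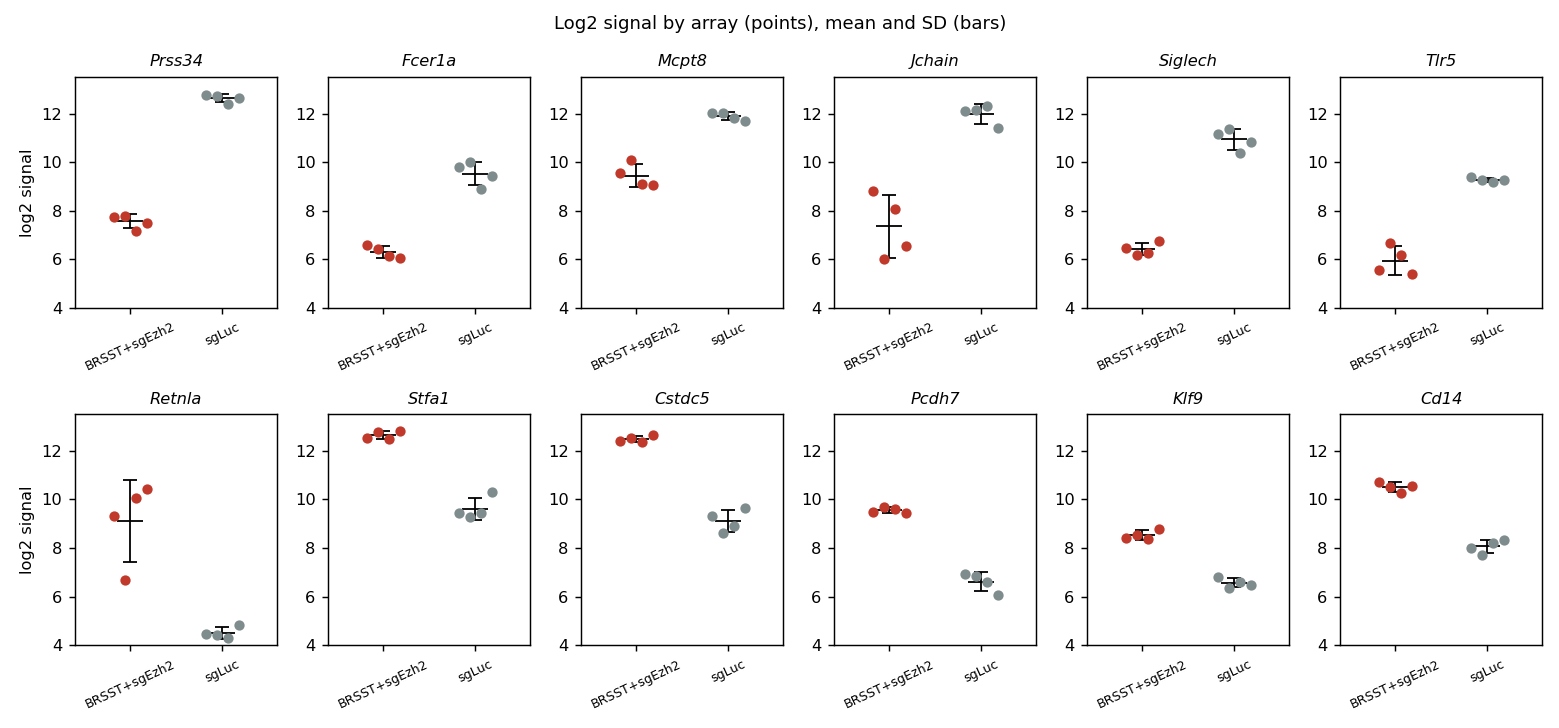
Points are log2 signals of single arrays (4 BRSST+sgEzh2 in red, 4 sgLuc in grey), and bars are the group mean and SD, for 6 genes that fell (upper row) and 6 that rose (lower row). The groups do not overlap in any panel; Jchain and Retnla have the widest spread among the BRSST+sgEzh2 arrays.

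B lineage genes were lower as a group, but with a wide spread between the BRSST+sgEzh2 arrays. All 13 tested genes of B cell precursors had differences below 0, with a median of -1.69, while 4 of them were called (3 to 12 falls over settings, the most with array quality weights). Vpreb3, a gene expressed in B cell precursors, read 6.30, 10.19, 6.91 and 7.48 in BRSST+sgEzh2 and 10.83, 10.81, 9.54 and 11.60 in sgLuc. BRSST+sgEzh2 replicate 2 stood inside the sgLuc range and the other arrays below it (-2.97 ± 0.66, limma adjusted p = 0.0118; 0.102 with the high Y-linked class alone). Il7r, the interleukin 7 receptor of early B cells, fell by 2.22 ± 0.56 (0.0249), Bach2, a B cell repressor, by 1.32 ± 0.28 (0.00875) and Lef1, a Wnt pathway transcription factor of precursors, by 1.09 ± 0.29 (0.0314). Pax5 and Ebf1, which specify the lineage, differed by -2.25 (0.096) and -2.06 (0.0502) and were not called. The call of Il7r was lost without BRSST+sgEzh2 replicate 1 or sgLuc replicate 1, 2 or 4 (0.065 to 0.0713). That of Lef1 was lost without any of BRSST+sgEzh2 replicates 1 and 4 and sgLuc replicates 1, 2 and 4 (0.0615 to 0.0942), and with the Y-linked class as a block (0.0629). That of Bach2 was at 0.051 with the high Y-linked class alone. The list had 9 falls without BRSST+sgEzh2 replicate 2, 8 without replicate 3, and 2 without BRSST+sgEzh2 replicate 1 or sgLuc replicate 1, 2 or 4.

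Genes of mature B cells repeated this picture. Of 12 tested, 5 fell and 0 rose, with a median of -1.42 (1 to 10 falls over settings, 3 with the replicate block). Fcer2a, the low-affinity receptor for immunoglobulin E, was 7.11 to 7.43 in BRSST+sgEzh2 and 8.31 to 8.82 in sgLuc (-1.23 ± 0.13, limma adjusted p = 3.77e-05). Cr2, the complement receptor CD21, differed by -1.46 ± 0.16 (7.58e-05) and Cd72, an inhibitory receptor, by -1.70 ± 0.35 (0.00748). The groups were apart for Fcer2a and Cr2 and overlapped for Cd72, where BRSST+sgEzh2 replicate 3 at 8.53 was above the lowest sgLuc array. Pou2af1, a coactivator (-1.10 ± 0.30, 0.037), and Cd22, an inhibitory lectin (-1.79 ± 0.51, 0.0414), were the other falls. Both calls were lost without any of 6 arrays, BRSST+sgEzh2 replicates 1, 2 and 4 and sgLuc replicates 1, 2 and 4 (0.0674 to 0.122). Without BRSST+sgEzh2 replicate 3 the list had 8 falls, and 3 without BRSST+sgEzh2 replicate 1, 2 or 4 or sgLuc replicate 1, 2 or 4.

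T cell genes were not called, a count that depended on BRSST+sgEzh2 replicate 3 and on the settings. Of 10 tested, limma called 0 (4 at an unadjusted p below 0.05, and 3 falls with array quality weights) with a median of -0.62, though all 10 were below 0. Cd8b1, a chain of the CD8 coreceptor, read 6.71, 6.13, 9.08 and 6.28 in BRSST+sgEzh2 and 7.98 to 8.82 in sgLuc, so that BRSST+sgEzh2 replicate 3 was the highest of the 8 arrays and the other replicates were the lowest (-1.30 ± 0.50, limma adjusted p = 0.123). Zap70, a kinase of the T cell receptor, differed by -0.84 ± 0.25 (0.0507) and passed with all arrays kept under quantile normalization (0.0451), trended variance (0.0418), only the 2 groups (0.0357) and the Y-linked block (0.0259). The list had 0 to 8 falls over settings, 3 with that block and 8 with the high Y-linked class alone. Without BRSST+sgEzh2 replicate 3, 7 of the 10 genes fell, Cd8b1 with -1.98 (0.000512) and Zap70 with -1.03 (0.0215). The mean signal of the 14 measured T cell genes was 8.22 on that array, 6.76 to 7.01 on the other BRSST+sgEzh2 arrays and 7.76 to 8.06 on the sgLuc arrays. Natural killer genes had 1 fall in 9, Nkg7 (-0.94 ± 0.25, 0.0325; lost without any of BRSST+sgEzh2 replicates 1 and 4 and sgLuc replicates 1 to 4, 0.061 to 0.0875), with a median of -0.94. The median was -0.40 without BRSST+sgEzh2 replicate 1 and -0.57 without a filter on dim genes. The natural killer list had 6 falls with array quality weights and 6 with the high Y-linked class alone. Their mean signal was 6.06 on BRSST+sgEzh2 replicate 1 and 7.61 to 8.04 on the other replicates. The part of lymphocyte content in other differences of the same arrays was not tested.

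**Figure D3:**
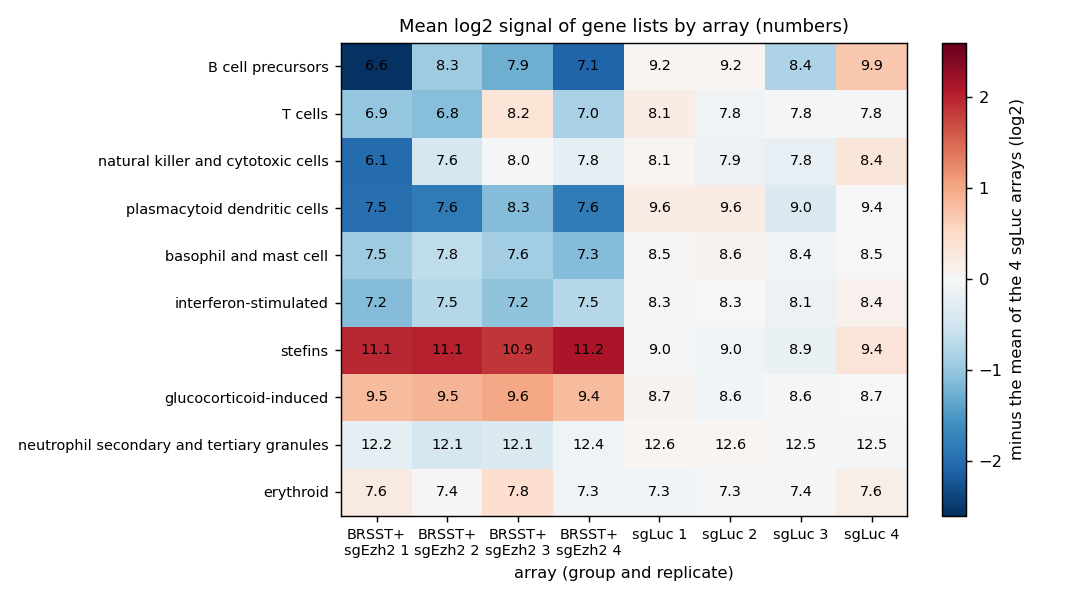
The number in each cell is the mean log2 signal of a gene list's measured members on 1 array, and the colour is that mean minus the mean of the 4 sgLuc arrays (log2). Stefin and glucocorticoid-induced genes are evenly high on the 4 BRSST+sgEzh2 arrays and interferon-stimulated genes evenly low, while T cell genes are at the sgLuc level on replicate 3 and natural killer genes are lowest on replicate 1.

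Interferon-stimulated genes fell together. Of 17 tested, 11 were called lower and 0 higher, and all 17 had differences below 0, with a median of -0.97 beside 0.02 over all genes (9 to 14 falls over settings, apart from 6 of the 6 genes that the filter at the 75th percentile left). The mean of the 23 measured members was 7.15, 7.54, 7.24 and 7.54 on the BRSST+sgEzh2 arrays and 8.30, 8.29, 8.13 and 8.39 on the sgLuc arrays. The list was thus lower on each BRSST+sgEzh2 array than on any sgLuc array, without the spread seen for lymphocyte genes. Ube2l6, the enzyme that conjugates ISG15 to its targets, read 6.24, 6.82, 7.27 and 7.31 against 9.16, 9.21, 9.24 and 8.97 and fell most (-2.23 ± 0.25, limma adjusted p = 7.66e-05). Oas2 and Oas3, sensors of double-stranded RNA, fell by 1.70 ± 0.32 (0.0043) and by 1.33 ± 0.19 (0.000605). Usp18, which removes ISG15, fell by 1.55 ± 0.28 (0.00362), and Isg15 itself, a ubiquitin-like modifier, by 1.07 ± 0.21 (0.0063). Other falls were those of the RNA sensor Ddx58 (-1.17), Oasl2 (-1.11), the transcription factors Irf7 (-0.97) and Stat2 (-0.71), Trim30a (-0.94) and Cmpk2 (-0.51). Of these, Irf7, Trim30a and Cmpk2 were near the threshold and lost their calls without any of 5 to 7 of the 8 arrays (0.0548 to 0.117), and the list had 8 to 12 falls in the 8 fits without 1 array. Ifit1bl2, an IFIT family gene outside the list, read 4.79 to 5.21 against 7.95 to 8.77 (-3.37 ± 0.21, 8.62e-07), and its BRSST+sgEzh2 values lay below the lower quartile of those arrays. Plasmacytoid dendritic cell genes were lower on the same arrays, as described above, and their part in this result was not tested. Genes of MHC class I presentation and the immunoproteasome, which interferons also induce, had 0 limma calls in 12 with a median of -0.10 (0 at an unadjusted p below 0.05, and 1 fall with array quality weights).

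Transcription factors activated by interferon bind an element whose core is GAAA, any 2 bases, and GAAA again. This pattern was searched on both strands of the 250 bases before each start site in RefSeq's promoters (GRCm38.p6). It was present for 8 of the 18 list genes with a promoter entry (44.4%) and for 936 of 27025 genes overall (3.46%). The windows of 3 genes that fell are shown to make the pattern visible, with it in capitals and read 5′ to 3′ in the direction of the gene. Isg15 (chr4:156200855-156200916, minus strand) has overlapping copies that merge into 1 run, and Trim30a (chr7:104465200-104465249, minus strand) has it on the opposite strand. Oas3 (chr5:120777705-120777754, minus strand) has 1 copy.
Isg15: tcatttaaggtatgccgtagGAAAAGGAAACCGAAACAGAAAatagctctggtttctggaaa
Oas3: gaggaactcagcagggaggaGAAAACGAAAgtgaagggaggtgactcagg
Trim30a: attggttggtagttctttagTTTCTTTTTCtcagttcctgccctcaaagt
The pattern is not in the windows of Ube2l6, Ddx58, Oasl2, Irf7 and Cmpk2, which also fell. It was chosen after promoters of the list had been read, and a match describes letters, not binding.

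Receptors of myeloid cells moved in both directions. Tlr5, the receptor for bacterial flagellin, read 5.55, 6.66, 6.16 and 5.38 in BRSST+sgEzh2 and 9.39, 9.25, 9.19 and 9.26 in sgLuc, with no overlap (-3.33 ± 0.33, limma adjusted p = 3.28e-05). Cd14, the coreceptor for bacterial lipopolysaccharide, went the other way, from 7.70 to 8.33 in sgLuc up to 10.26 to 10.73 in BRSST+sgEzh2 (2.44 ± 0.26, 5.66e-05). Tlr2 and Tlr4, which work with Cd14, differed by -0.31 and -0.30 and were not called. In the interleukin 1 system the antagonist Il1rn fell by 2.57 ± 0.43 (0.00216) while the receptor Il1r1 rose by 1.54 ± 0.27 (0.00316). Il1rn was 8.21 to 9.14 against 10.74 to 11.44, and Il1r1 was 7.72 to 8.60 against 6.27 to 6.80, so both were apart on every array. These were the 2 rises and 2 falls among 20 tested Toll-like receptor and interleukin 1 genes, whose median was -0.31 (-0.20 without BRSST+sgEzh2 replicate 2 and -0.46 without replicate 4; 2 to 7 falls over settings).

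Few monocyte genes were called, in both directions. Of 17 tested, 2 rose and 3 fell (median -0.26; 1 to 7 falls and 2 to 3 rises over settings). The rises were Cd14 and F13a1, a coagulation factor (1.21 ± 0.24, limma adjusted p = 0.00618). The falls were Cx3cr1 (-1.83 ± 0.30, 0.00183), Ace (-2.49 ± 0.51, 0.00748) and Treml4 (-1.36 ± 0.27, 0.00646), which patrolling monocytes express. For Ace, BRSST+sgEzh2 replicate 4 read 7.67, inside the sgLuc range of 7.57 to 9.24, and the other replicates 4.91 to 5.69, below the lower quartile of those arrays. Ly6c2, the marker of classical monocytes, and Csf1r, a receptor of monocytes in general, differed by -0.24 and 0.01 and were not called. Conventional dendritic cell genes had 3 falls and 1 rise in 9 tested (median -0.47; 2 to 6 falls over settings). Kmo, of kynurenine metabolism, fell by 2.54 ± 0.31 (0.000192), Itgax, the integrin CD11c, by 1.24 ± 0.19 (0.00121) and Clec10a, a lectin, by 0.89 ± 0.18 (0.00617). The rise was Id2 (0.64 ± 0.18, 0.0375), an inhibitor of transcription factors found in many cell types, whose call was kept in 1 of the 8 fits without 1 array (0.0699 to 0.0941 without BRSST+sgEzh2 replicate 1, 3 or 4 or any sgLuc array). Macrophage genes had 2 falls in 11, Mrc1, the mannose receptor (-2.32 ± 0.50, 0.0102), and C1qa, a complement chain (-1.93 ± 0.45, 0.016). The call of C1qa was lost without BRSST+sgEzh2 replicate 1 or 2 (0.0526 and 0.051), and 4 genes of the list fell without replicate 4 (0 to 6 over settings). For Kmo and Mrc1, 3 of the 4 BRSST+sgEzh2 values lay below the lower quartile of their arrays. Of 11 class II presentation genes 11 were below 0 and 1 was called, Ciita, their master regulator (-0.92 ± 0.22, 0.0205; 0.0594 to 0.0659 without BRSST+sgEzh2 replicate 1 or 2 or sgLuc replicate 1), and 3 fell without BRSST+sgEzh2 replicate 3. The class II list had 0 to 9 falls over settings, 9 with the high Y-linked class alone.

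Neutrophil genes changed little beside these lists. The median was above 0 in the list of primary granule genes and below 0 in the lists of later stages, with few calls in each. Among 11 tested genes of primary granules, which form in promyelocytes, 3 rose and 1 fell with a median of 0.21 (3 to 6 rises over settings). Ctsg, cathepsin G, was 12.33 to 12.75 in BRSST+sgEzh2 and 11.65 to 11.80 in sgLuc (0.79 ± 0.10, limma adjusted p = 0.000292). Prtn3, proteinase 3, rose by 0.54 ± 0.12 (0.0128; 0.0528 without sgLuc replicate 1) and Igfbp4 by 0.87 ± 0.20 (0.014; 0.0517 and 0.0563 without BRSST+sgEzh2 replicate 2 and sgLuc replicate 1), so that 1 rise was left without sgLuc replicate 1. Nkg7, given above with the natural killer genes, was the fall. Mpo, myeloperoxidase, and Elane, neutrophil elastase, differed by 0.21 and 0.12 and were not called. Secondary and tertiary granule genes, of later stages, had 3 falls and 0 rises in 14 tested (median -0.36). There were 6 falls under quantile normalization, and 8 with trended variance, array quality weights or the high Y-linked class alone or without BRSST+sgLuc replicates 2 and 5. Padi4, which citrullinates histones, fell by 0.69 ± 0.14 (0.00839), Cybb, the oxidase subunit, by 0.49 ± 0.10 (0.00862), and Ltf, lactoferrin, by 0.43 ± 0.10 (0.0168; 0.0517 to 0.0581 without BRSST+sgEzh2 replicate 2 or sgLuc replicate 1 or 2). The count of falls in that list was 6 without BRSST+sgEzh2 replicate 4 and 2 without BRSST+sgEzh2 replicate 2 or sgLuc replicate 1 or 2. Of 17 effector genes of mature neutrophils 4 fell and 0 rose (median -0.24; 3 to 9 falls over settings), led by Clec4e, a lectin that senses mycobacteria (-0.96 ± 0.15, 0.00113). The other falls, Mxd1 (-0.55), Trem3 (-0.43) and Csf3r, the receptor for G-CSF (-0.37), were each lost without any of 5 to 7 of the 8 arrays (adjusted p from 0.0518 to 0.138), and the list had 1 fall without BRSST+sgEzh2 replicate 1 or sgLuc replicate 1, 2 or 3 and 2 without BRSST+sgEzh2 replicate 2 or 3 or sgLuc replicate 4.

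The largest rise was that of Retnla, a resistin-like protein of alternatively activated macrophages. It read 9.32, 6.69, 10.08 and 10.43 in BRSST+sgEzh2 and 4.46, 4.40, 4.29 and 4.83 in sgLuc. BRSST+sgEzh2 replicate 2 was far below the other replicates but above all sgLuc arrays. On the sgLuc arrays Retnla lay below the lower quartile of all signals, so its level there is hardly measured. The difference was 4.63 ± 1.03 (limma adjusted p = 0.0119). The other rise among 10 tested resistin-like, chitinase-like and acute phase genes was Orm1, an acute phase protein (0.75 ± 0.12, 0.00131). Chil1, a chitinase-like protein of neutrophil granules, was the 1 fall (-0.85 ± 0.14, 0.00166). The list had 2 to 3 rises and 1 to 2 falls over settings.

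Stefins, small inhibitors of cysteine proteases that mouse neutrophils express from a gene cluster on chromosome 16, rose as a block. Of 12 tested genes of the stefin and cystatin list, 10 were called higher and 0 lower, with a median of 2.46. Cstdc5 read 12.39, 12.55, 12.37 and 12.65 in BRSST+sgEzh2 and 9.31, 8.63, 8.91 and 9.66 in sgLuc (3.36 ± 0.22, limma adjusted p = 1.06e-06). Stfa1 read 12.55, 12.76, 12.49 and 12.81 against 9.45, 9.26, 9.46 and 10.29 (3.04 ± 0.20, 1.06e-06). Both were almost level across the BRSST+sgEzh2 arrays, and sgLuc replicate 4 was the highest of its group. Stfa2 (2.98), Cstdc6 (2.89), Csta2 (2.76), Stfa3 (2.56), Stfa2l1 (2.37), Cstdc4 (2.19) and Csta3 (2.18) rose as well. Outside the cluster Cst7, cystatin F, rose by 0.87 ± 0.14 (0.00168), while Cstb and Cst3 differed by 0.20 (0.468) and 0.04 (0.867). Csta1 of the cluster was too dim to be tested. The cluster's genes are close copies, so rows of the array may share signal between them, which was not tested. The number of calls was 10 in each of the 8 fits without 1 array and 10 to 11 over settings.

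Promoters of the cluster are alike as well. They are shown because the genes moved together, with a block in capitals that 7 of the 11 list genes with an entry in RefSeq's promoters (GRCm38.p6) hold (63.6%). Within 250 bases before a start site, on either strand, this block occurs in 15 of 27025 genes (0.0555%). The windows are those of Stfa1 (chr16:36277076-36277138, plus strand), Stfa2 (chr16:36408372-36408434, minus), Stfa2l1 (chr16:36156736-36156798, plus), Stfa3 (chr16:36455403-36455465, minus), Csta3 (chr16:36210284-36210346, plus), Cstdc4 (chr16:36184141-36184203, plus) and Cstdc5 (chr16:36367571-36367621, minus), 5′ to 3′ in the direction of the gene.
Stfa1: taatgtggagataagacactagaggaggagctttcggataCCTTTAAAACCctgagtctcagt
Stfa2: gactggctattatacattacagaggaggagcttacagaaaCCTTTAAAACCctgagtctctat
Stfa2l1: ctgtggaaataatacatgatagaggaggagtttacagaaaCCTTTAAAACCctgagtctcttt
Stfa3: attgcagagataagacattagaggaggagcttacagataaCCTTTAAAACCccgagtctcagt
Csta3: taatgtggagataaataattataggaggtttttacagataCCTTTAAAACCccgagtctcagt
Cstdc4: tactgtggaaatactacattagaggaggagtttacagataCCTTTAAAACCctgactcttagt
Cstdc5: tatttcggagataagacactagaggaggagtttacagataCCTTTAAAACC
The 250 bases of Csta1, Csta2, Cst3 and Cst7 do not hold the block, and Csta2 rose like its neighbours. The block was picked by reading these promoters, so its frequency among them describes the family.

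Glucocorticoid-induced genes rose. Of 12 tested, 7 were called higher and 0 lower, with a median of 0.99 (6 to 9 rises over settings). Klf9, a transcription factor, read 8.41, 8.55, 8.39 and 8.80 in BRSST+sgEzh2 and 6.80, 6.37, 6.61 and 6.47 in sgLuc (1.97 ± 0.22, limma adjusted p = 7.52e-05). Mt1, a metallothionein that binds zinc, read 10.17, 10.59, 10.61 and 10.10 against 8.21, 8.47, 8.41 and 8.75 (1.91 ± 0.20, 5.66e-05). The groups were far apart for both. Zbtb16, the transcription factor PLZF, rose by 1.49 ± 0.17 (7.66e-05), the clock gene Per1 by 1.43 ± 0.25 (0.00279), the receptor cochaperone Fkbp5 by 1.39 ± 0.16 (0.00012), the cell cycle inhibitor Cdkn1a by 1.08 ± 0.22 (0.00783) and Tsc22d3, the leucine zipper GILZ, by 0.90 ± 0.22 (0.02; 0.0518 to 0.0693 without BRSST+sgEzh2 replicate 2 or sgLuc replicate 2 or 4). Sgk1, Dusp1, Mt2, Ddit4 and Nfkbia were between -0.19 and 0.40 and not called. The list was chosen with its rise in these data known, so its direction is no independent evidence.

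Immediate early genes, which respond to handling and stress of cells within minutes, had 5 rises and 0 falls in 18 tested (median 0.41; 3 to 9 rises over settings). Fosb was 11.77 to 12.39 in BRSST+sgEzh2 and 10.47 to 11.34 in sgLuc (1.04 ± 0.23, limma adjusted p = 0.0112) and Fos 11.52 to 11.91 against 10.52 to 11.10 (0.92 ± 0.18, 0.0064). These 2 calls held in each fit without 1 array. Junb (0.73 ± 0.21, 0.0427), Jun (1.04 ± 0.29, 0.0395) and Nr4a2 (1.0 ± 0.29, 0.0423) were near the threshold. The call of Junb was kept only without sgLuc replicate 4 among the fits without 1 array (0.0681 to 0.118 in the others). The call of Jun was lost without any of BRSST+sgEzh2 replicates 2 to 4 and sgLuc replicates 1 to 3 (0.0685 to 0.122) and that of Nr4a2 without any of BRSST+sgEzh2 replicates 2 to 4 and sgLuc replicates 2 to 4 (0.0567 to 0.134). Both were also lost with the replicate block (0.0543 and 0.0525). The list's count was 2 without any of BRSST+sgEzh2 replicates 2 to 4 or sgLuc replicates 2 and 3, and 3 without sgLuc replicate 1 or without a filter on dim genes, and 3 with equal medians. Among 13 tested p53 targets 3 rose, Cdkn1a, the proapoptotic Pmaip1 (1.18 ± 0.32, 0.0342) and the membrane protein Perp (1.09 ± 0.20, 0.00353). The median was 0.05, with 2 to 4 rises and 0 to 2 falls over settings. The call of Pmaip1 was lost without any of BRSST+sgEzh2 replicates 2 and 3 and sgLuc replicates 1 to 3 (0.072 to 0.106). Mdm2, a direct target, differed by -0.30. Of 9 heat shock chaperones Hsph1 fell (-1.25 ± 0.27, 0.00932), with a median of 0.06 (0 to 1 rise and 0 to 1 fall over settings).

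Genes of energy metabolism and ribosome assembly moved by small amounts. Of 26 oxidative phosphorylation genes 24 were above 0 and 6 rose, with a median of 0.18. Ndufv1 of complex I was 10.56 to 10.74 in BRSST+sgEzh2 and 9.95 to 10.24 in sgLuc (0.54 ± 0.11, limma adjusted p = 0.00887). Atp5g1 of the ATP synthase rose by 0.52 ± 0.13 (0.02), Ndufb8 by 0.45 ± 0.13 (0.0422) and Sdhd of complex II by 0.44 ± 0.10 (0.0158). The call of Ndufb8 was lost in each of the 8 fits without 1 array (0.0518 to 0.129), that of Atp5g1 without BRSST+sgEzh2 replicate 2 or sgLuc replicate 1 or 2 (0.0519 to 0.0708) and that of Sdhd without sgLuc replicate 1 or 2 (0.0551 and 0.0528). The 6 calls became 1 without sgLuc replicate 1 or 2, 2 without BRSST+sgEzh2 replicate 2, and 3 without BRSST+sgEzh2 replicate 1 or 3 or sgLuc replicate 3. Without a filter on dim genes or with quantile normalization there were 3, and 12 with array quality weights. Of 18 ribosome biogenesis genes 17 were above 0 and 3 rose, Wdr12 (0.84), Noc4l (0.68) and Pes1 (0.61), with a median of 0.38 (3 to 9 rises over settings). The 3 calls became 0 without BRSST+sgEzh2 replicate 2 or sgLuc replicate 3, and 1 without BRSST+sgEzh2 replicate 1 or sgLuc replicate 1 or 2. Each of the 3 genes lost its call without any of 3 to 6 arrays (0.0541 to 0.105). Egln3, a prolyl hydroxylase induced by hypoxia, rose by 1.28 ± 0.16 (0.00025) as the 1 rise in 23 glycolysis and hypoxia genes, and Ndrg1 was the 1 fall (-0.56 ± 0.15, 0.031; lost without any of 6 arrays, 0.0553 to 0.0915). That list had 1 to 7 rises and 1 to 4 falls over settings. Over all genes tested, 5.51% were called higher and 3.86% lower. Hsd17b7 (-1.0 ± 0.25, 0.0215) and Mvd (-0.65 ± 0.13, 0.0063) of cholesterol synthesis fell among 18 tested (median -0.16; 1 to 6 falls over settings), and the call of Hsd17b7 was lost without any of BRSST+sgEzh2 replicates 1 and 3 and sgLuc replicates 1 to 3 (0.0511 to 0.0721).

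Cell cycle genes, stem cell genes and leukemia genes had few calls. Over all genes tested 9.37% were called, 5.51% higher and 3.86% lower, so low counts in lists of these sizes say little about the lists. Of 22 S phase genes and 20 mitosis genes limma called 0 and 0 (0 and 3 at an unadjusted p below 0.05, 1 and 6 with array quality weights), with medians of 0.05 and -0.14. Gins1 (0.59 ± 0.29, limma adjusted p = 0.223) and Bub1b (-0.81 ± 0.32, 0.134) were among those with the smallest p. Of 24 myeloid tumour suppressors and leukemia genes, among them Tet2, Asxl1, Runx1, Stag2 and Dnmt3a, limma called 0 (4 at an unadjusted p below 0.05, 7 with array quality weights), and without BRSST+sgEzh2 replicate 2 there was 1 fall. Of 12 stem and progenitor genes Prom1 fell (-0.90 ± 0.24, 0.0326), a call lost without any of BRSST+sgEzh2 replicates 1 to 3 and sgLuc replicates 1 to 3 (0.0548 to 0.0917) and with the Y-linked class as a block (0.0839). The stem and progenitor list had 2 falls without BRSST+sgEzh2 replicate 2, and 0 to 1 rise and 0 to 5 falls over settings. Of 15 erythroid genes Fech, the last enzyme of heme synthesis, rose (0.71 ± 0.12, 0.00274; 2 genes rose without sgLuc replicate 4, and 1 to 3 over settings), while Gata1 stood at -0.10. Of 9 megakaryocyte genes limma called 0 (3 at an unadjusted p below 0.05, and 1 fall without BRSST+sgEzh2 replicate 4; 0 to 2 rises and 0 to 2 falls over settings). In the adhesion list 3 of 12 rose and 1 fell (3 to 4 rises and 0 to 1 fall over settings). There the integrin Itga6 read 10.13 to 10.93 against 9.25 to 9.52 (1.10 ± 0.15, 0.00044) and Cdh1, E-cadherin, 6.92 to 7.63 against 8.43 to 8.73 (-1.36 ± 0.15, 8.82e-05). Other large changes lay outside the lists: Cldn1, a tight junction protein, read 5.44, 5.78, 5.56 and 5.37 in BRSST+sgEzh2 and 9.24, 9.07, 9.07 and 8.72 in sgLuc (-3.49 ± 0.43, 0.000204, with 3 BRSST+sgEzh2 values below the lower quartile). The kinase Stk39 differed by -3.37 ± 0.57 (0.00222) and Atp1b1, a sodium pump subunit, by -3.19 ± 0.48 (0.000926), both called falls. Fabp7, a fatty acid binding protein, rose by 2.90 ± 0.66 (0.0132), and Ces2g, a carboxylesterase, by 2.62 ± 0.34 (0.000298). The groups did not overlap for these 5 genes.

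**Figure D4:**
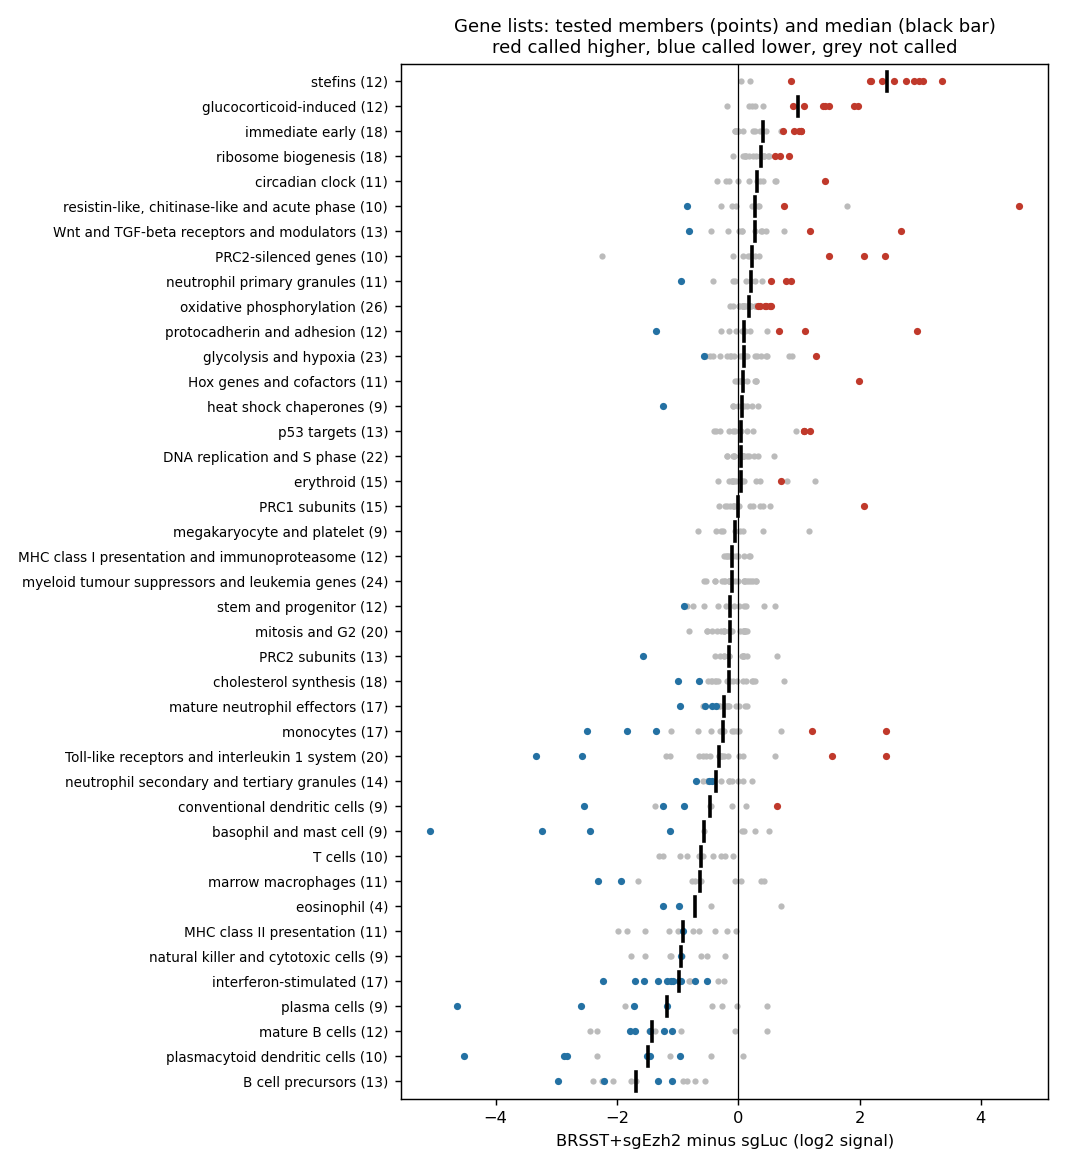
Each row is a gene list with its number of tested genes in brackets, each point a tested gene at its difference BRSST+sgEzh2 minus sgLuc (log2), and the black bar the list's median. Red points are called higher, blue called lower and grey not called: stefins have 10 rises in 12 and interferon-stimulated genes 11 falls in 17, while the S phase, mitosis, leukemia gene and megakaryocyte rows have no coloured point.

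Most genes called against sgLuc were not called against BRSST+sgLuc, the marrow with the BRSST combination but without the Ezh2 guide. Both comparisons share the BRSST+sgEzh2 arrays, so their values are given side by side. Against BRSST+sgLuc 83 genes (0.783%) were called, 71 higher (0.67%) and 12 lower (0.113%). An unadjusted limma p below 0.05 was found for 1472 of all genes tested (13.9%) and for 235 of the 993 genes called against sgLuc. A missed call thus does not show that a gene was alike in the 2 BRSST groups. The number of calls was 36, 47 or 22 without BRSST+sgEzh2 replicate 1, 3 or 4, and 29, 257, 377 or 34 without replicate 1, 2, 3 or 4 of BRSST+sgLuc. Without BRSST+sgLuc replicates 2 and 5, which stood apart, it was 143. Prss34 was 7.47 to 8.67 on the BRSST+sgLuc arrays and differed from them by -0.32 ± 0.22 (limma adjusted p = 0.554). Siglech read 6.50, 9.01, 9.01, 6.40 and 5.89 there, a difference of -0.95 ± 0.57 (0.501). Stfa1 differed by 0.23 ± 0.19 (0.639), Klf9 by -0.47 ± 0.21 (0.324) and Retnla by 1.01 ± 0.98 (0.706). For each of these genes the 2 BRSST groups overlapped. Pcdh7, a protocadherin, read 9.48, 9.70, 9.61 and 9.44 with the Ezh2 guide, 7.85 to 9.13 with BRSST+sgLuc and 6.06 to 6.92 with sgLuc, in this order with no overlap between the groups. Its rise against sgLuc was 2.95 ± 0.24 (4.22e-06), and that against BRSST+sgLuc, 0.92 ± 0.23, missed the threshold (0.0766). For Ptprm, a receptor tyrosine phosphatase, BRSST+sgEzh2 was likewise above the other groups, which overlapped each other (2.89 ± 0.36, 0.000192, and 1.51 ± 0.34, 0.0553). All 4 sgLuc values of Ptprm lay below the lower quartile of their arrays.

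A set of 33 genes was called the same way against both groups, 30 higher and 3 lower (0.283% and 0.0283% of genes tested). Ryk, a receptor for Wnt ligands, had the smallest adjusted p of these genes against either group. It read 9.14, 9.73, 9.39 and 9.67 in BRSST+sgEzh2, 6.58, 6.76, 6.98, 6.90 and 6.69 in BRSST+sgLuc and 6.70, 7.08, 6.64 and 6.78 in sgLuc. The groups without the Ezh2 guide differed by -0.02 ± 0.14 (limma adjusted p = 0.945), and every BRSST+sgEzh2 array was above every other array. The rise was 2.68 ± 0.15 against sgLuc (2.35e-07) and 2.70 ± 0.14 against BRSST+sgLuc (2.11e-07). Apoc1, an apolipoprotein, rose by 2.16 ± 0.30 (0.000449) and by 1.57 ± 0.28 (0.0204), a direct call lost when replicate 1 or 4 of BRSST+sgEzh2 or replicate 1 of BRSST+sgLuc was left out (up to 0.088). Dip2c rose by 1.98 ± 0.36 (0.00394) and by 2.54 ± 0.35 (0.00359), Plxnb3, a semaphorin receptor, by 2.00 ± 0.16 (4.54e-06) and by 1.34 ± 0.15 (0.000849), and Hif3a, an inhibitor of hypoxia signalling, by 1.95 ± 0.18 (1.09e-05) and by 1.42 ± 0.17 (0.000883). Plxnb3 and Hif3a were already higher in BRSST+sgLuc than in sgLuc, by 0.66 ± 0.15 (0.00867) and 0.53 ± 0.17 (0.0344).

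A Polycomb gene and genes of a list of PRC2-silenced genes were among them. These lists were chosen with earlier results of these data known, so the rises of their members are no independent evidence. Bmi1, the PRC1 subunit, read 9.38, 9.54, 9.31 and 9.78 in BRSST+sgEzh2, 7.56 to 8.08 in BRSST+sgLuc and 6.88 to 7.68 in sgLuc. It rose 4.22-fold against sgLuc (2.08 ± 0.18, limma adjusted p = 7.2e-06) and by 1.71 ± 0.17 against BRSST+sgLuc (0.000192). Bmi1 was the 1 call in 15 tested PRC1 subunits, whose median was -0.01 (2 rises without BRSST+sgEzh2 replicate 1 or 3; 1 to 5 rises and 0 to 2 falls over settings). Rnf2 and Cbx7, with differences of 0.41 and 0.52, were not called. Ezh2 was the 1 call in 13 PRC2 subunits: Eed (-0.23), Suz12 (0.07), the paralog Ezh1 (-0.30) and Phf19 (0.64) were not called (1 to 4 falls over settings). Of 10 tested genes on a list of PRC2-silenced genes, 3 rose and 0 fell (median 0.23; 0 to 6 rises and 0 to 1 fall over settings). There was 1 fall without BRSST+sgEzh2 replicate 3, with array quality weights, with the Y-linked class as a block or with the high Y-linked class alone. The filter at the 75th percentile left 1 gene of the list, which was not called and had a difference of -2.25. Without a filter on dim genes, 4 of the 15 measured genes rose and 0 fell (median 0.20). Of the 3 rises, Igf2bp3 and Plag1 were above their array's median only on the 4 BRSST+sgEzh2 arrays. They passed the filter through the group where they were high, so the count of 3 in 10 depends in part on the filter. Igf2bp3, which binds RNA and is known from fetal tissues, read 8.77, 8.35, 8.37 and 8.57 in BRSST+sgEzh2, 6.92 to 7.20 in BRSST+sgLuc and 6.82 to 7.25 in sgLuc, and rose by 1.5 ± 0.13 (6.02e-06) and by 1.49 ± 0.12 (2.16e-05). Plag1, a zinc finger transcription factor, read 8.58, 9.08, 7.82 and 8.99, with 6.05 to 6.49 and 6.30 to 6.96 in the control groups, and rose by 2.07 ± 0.24 (9.35e-05) and by 2.35 ± 0.22 (0.000136). Penk, the precursor of enkephalin peptides, was more variable. Its values were 9.77, 8.02, 10.26 and 9.73 in BRSST+sgEzh2, 6.19, 8.56, 7.15, 6.75 and 5.59 in BRSST+sgLuc and 6.61 to 7.72 in sgLuc, so that BRSST+sgLuc replicate 2 overlapped BRSST+sgEzh2. The rise was 2.42 ± 0.56 against sgLuc (0.0155) and 2.6 ± 0.53 against BRSST+sgLuc (0.0428), where the call was kept in 3 of 9 fits without 1 array. It was lost when replicate 1, 3 or 4 of BRSST+sgEzh2 or replicate 1, 4 or 5 of BRSST+sgLuc was left out (up to 0.134). Chchd7, a mitochondrial protein whose gene adjoins Plag1 on chromosome 4, near Penk, rose by 1.09 ± 0.13 (0.000138) and by 0.74 ± 0.12 (0.014); that direct call was at 0.0517 without BRSST+sgEzh2 replicate 4. Chchd7 was picked for its place beside Plag1 after its values were seen. Of 11 Hox genes and cofactors Pbx3, a partner of Hox proteins, rose (1.99 ± 0.42, 0.00874) but not against BRSST+sgLuc (1.01 ± 0.40, 0.264). The Hox list had 1 to 3 rises and 0 falls over the 12 settings that left genes of it.

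**Figure D5:**
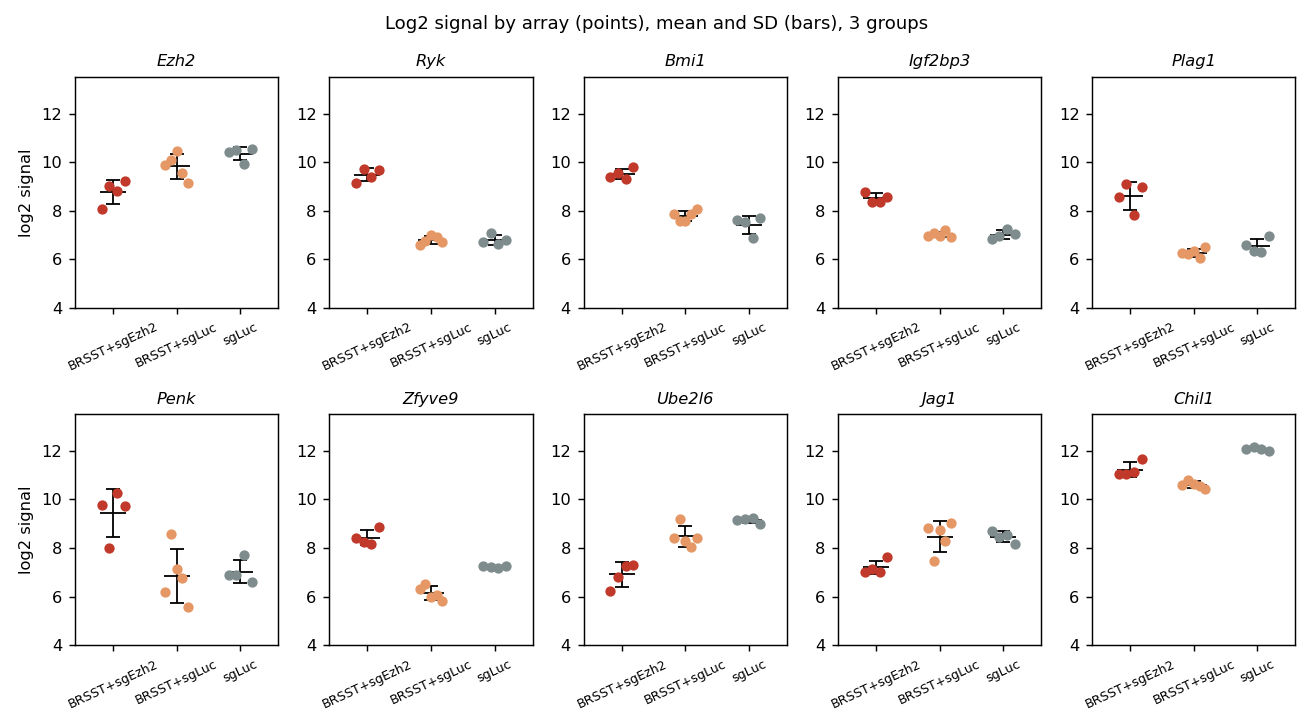
Points are log2 signals of single arrays (4 BRSST+sgEzh2, 5 BRSST+sgLuc, 4 sgLuc) and bars the group mean and SD for 10 genes. Ryk, Bmi1, Igf2bp3 and Plag1 are higher on each BRSST+sgEzh2 array than on any array of the other groups, and Zfyve9 and Chil1 are lowest in BRSST+sgLuc.

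A few genes differed from BRSST+sgLuc in a way that the comparison with sgLuc does not show. Zfyve9, an adaptor that brings Smad proteins to TGF-beta receptors, read 8.40, 8.24, 8.18 and 8.88 in BRSST+sgEzh2, 5.83 to 6.53 in BRSST+sgLuc and 7.19 to 7.27 in sgLuc. It was thus 1.09 lower in BRSST+sgLuc than in sgLuc (-1.09 ± 0.16, limma adjusted p = 0.000546) and 1.19 ± 0.17 higher in BRSST+sgEzh2 (0.000584), a span of 2.28 ± 0.16 between the BRSST groups (5.7e-06). Chil1, which fell by 0.85 against sgLuc, was 0.62 ± 0.13 above BRSST+sgLuc (0.0457). Ryk and Zfyve9 were the 2 rises among 13 tested Wnt and TGF-beta genes (median 0.27; 2 to 5 rises over settings), where the coreceptor Tgfbr3 fell, from 7.83 to 7.93 in sgLuc to 6.62 to 7.35 (-0.82 ± 0.15, 0.00458). Ryk passed the filter on dim genes only through the 4 BRSST+sgEzh2 arrays. Without that filter, 3 of the 23 measured genes of this list rose and 1 fell (median 0.08). In all, 47 genes were called against BRSST+sgLuc but not against sgLuc, and 3 in opposite directions. The 3 falls against both groups were Ube2l6, Jag1 and Ctdspl. Ube2l6 was 8.06 to 9.21 in BRSST+sgLuc and fell by 1.56 ± 0.24 from there (0.00692; 0.0557 with only the 2 groups compared). It is the 1 interferon list member with a direct call, and the list's median against BRSST+sgLuc was 0.16. Jag1, a ligand of Notch receptors, fell by 1.27 ± 0.28 (0.0108) and by 1.27 ± 0.26 (0.0442), and the direct call was kept in 2 of 9 fits without 1 array (up to 0.116). Those were the fits without BRSST+sgLuc replicate 2 or 3. Ctdspl, a phosphatase, fell by 0.38 ± 0.11 (0.0491) and by 0.55 ± 0.11 (0.0307), calls that were kept in 1 of 8 fits without 1 array against sgLuc and in 3 of 9 against BRSST+sgLuc.

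Promoters of called falls held fewer CpG dinucleotides, the sites of DNA methylation, at the median than those of all genes tested. In RefSeq's windows of 250 bases before to 50 after a start site, the median was 20 CpG over all genes tested, 14 for the called falls and 7 for called falls of 2-fold or more, for which 128 of 156 genes (82.1%) had an entry. At least 10 CpG were present in 79.6% of all genes tested and in 46.1% of these 2-fold falls. For the rises the count is void, since just under 80% of them had an entry (467 of 584, and 78.3% of those at 2-fold or more), so whether rises and falls differ here was not tested. Few CpG are thus not shown to be particular to the falls. Single genes of either direction had few or many. Among the largest rises Stfa2 had 0 CpG and Retnla 2, while Ryk had 42, and among the largest falls Prss34 had 3, while Atp1b1 had 31 and Stk39 49. The last 120 bases before the start sites of Ryk (chr9:102834800-102834919, plus strand) and Prss34 (chr17:25298274-25298393, plus strand) show a window with many CpG and one with none, in capitals, and do not stand for rises and falls.
Ryk: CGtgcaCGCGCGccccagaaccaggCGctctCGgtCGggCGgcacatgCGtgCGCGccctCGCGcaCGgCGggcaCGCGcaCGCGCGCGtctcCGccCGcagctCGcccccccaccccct
Prss34: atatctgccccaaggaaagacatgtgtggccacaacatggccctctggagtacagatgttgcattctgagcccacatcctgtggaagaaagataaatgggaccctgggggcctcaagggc
These 120 bases hold 24 CpG for Ryk and 0 for Prss34. Methylation was not measured here.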

How the data were processed

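Whole marrow RNA (2 ng, amplified with 10 PCR cycles before transcription, a step that can distort large differences) was measured on 13 Affymetrix arrays, per the labels' protocols. The deposited values are log2 signals. The authors used R 3.5.01 with oligo, as listed in the submitters' processing notes; how background and normalization were handled was not stated there. The log2 scale was inferred from the range of values, 3.23 to 13.75, and signals near its top can be compressed. Precision depends on the number of arrays, since there are no reads to count.

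A single gene symbol was paired with 19572 of the 22203 rows and no symbol with 2631, while 0 rows carried several. For the 55 symbols with more than 1 row, the row of highest mean was used. Genes above their array's median in at least 4 arrays were tested (10601). A gene could pass through the arrays of a single group, so list medians over tested genes can favour members high in that group. A single model without covariates was fitted to the 13 arrays (limma 3.58.1, R 4.3.3, lmFit then eBayes). Its p-values were adjusted by Benjamini and Hochberg's method across those genes, and 0.05 was the threshold. Every adjusted p is from limma. The procedure was tested on simulated data. Python 3.11.15 with matplotlib 3.10.9 drew the figures.

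The comparison, its marker genes and the 42 textbook gene lists were chosen with earlier results of these data known. Lists are described by counts and medians, with no set test. Named genes were the 12 largest rises and 12 largest falls among called genes whose groups did not overlap (leaving out predicted, Rik and similar symbols and antibody gene segments), 5 marker genes, called Polycomb, Hox and leukemia genes, up to 4 called members per other list (or the 2 with the smallest p), and the 6 largest rises and falls called against both groups. Other list members and Chchd7, Plxnb3, Hif3a and Dip2c were named after their values were seen, and a gene among the largest rises is not reported here.

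Same-numbered arrays of the 2 groups compared did not deviate together in every pair (correlations of -0.1142, 0.1249, 0.1922 and 0.1535), so the numbers were not taken to pair samples. Alternatives changed the filter (none, or the 75th percentile), the scaling (quantile, or equal medians), the use of repeated rows (their mean), the variance model (trended and robust, or array quality weights), the arrays fitted (only the 2 groups compared, or each array left out with the same genes tested), the blocking (replicate number, or Y-linked class by the mean of Uty and Kdm5d above or below 6.09) and the threshold. Promoters are RefSeq's (GRCm38.p6), and the motifs shown were chosen after promoters had been read.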

Additional observations from a re-analysis of the deposited data

Results flagged for a closer look

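In 12 of the 236 groups of 4 arrays examined for the named genes, the highest or lowest array stood apart from the nearest other by more than Dixon's critical share of the group's range, which chance gives in about 1 in 20. In BRSST+sgEzh2, replicate 4 was high for Ptprm (8.80), Csta2 (11.57), Cx3cr1 (7.52) and Chil1 (11.67) and low for Alox15 (6.56). Replicate 3 was high for Ly6d at 10.69, the widest of these gaps, with the next array at 7.77. Replicate 1 was low for Il7r (4.88) and replicate 2 for Orm1 (11.61). In sgLuc, replicate 1 was high for Fcer2a (8.82) and Mxd1 (11.65) and low for Ctsg (11.65), and replicate 3 was low for Kmo (7.34).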

How the results depend on the processing

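The fall of Ezh2 kept its direction and its call under every alternative run, between -1.34 and -1.85. The 993 calls against sgLuc became 2976 with array quality weights, 1822 with only the 2 groups compared, 1874 with the high Y-linked class alone, 1739 without BRSST+sgLuc replicates 2 and 5 (added after seeing the data), 398 at an adjusted p below 0.01 and 276 with at least 2-fold as well. Without 1 array they ranged from 519 to 839. The replicate block gave 1016 calls, and 1842 with only the 2 groups compared. The 83 calls against BRSST+sgLuc became 128 without a filter, 36 with the filter at the 75th percentile, 55 with equal medians, 1039 with array quality weights, 17 with only the 2 groups compared, 170 with the Y-linked class as a block, 722 with the high class alone, 143 without BRSST+sgLuc replicates 2 and 5, 18 at an adjusted p below 0.01 and 37 with at least 2-fold. The replicate block gave 28, and 2 with only the 2 groups compared. Without 1 array they ranged from 22 to 377. The causes were not tested. Of 117 named genes, 0 called genes reversed under the alternatives run, and 9 to 25 lost their call when 1 array was left out. Numbers of arrays limit both comparisons, and signals below the lower quartile, as for Retnla in sgLuc, limit fold changes.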
